A study of Mus musculus with 2 samples.

Results

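H/ACA box small nucleolar RNA (snoRNA) genes and small Cajal body RNA (scaRNA) genes were described in chromatin-associated RNA of stimulated mouse macrophages. The members were all genes whose symbol in the deposited transcript tables starts with Snora or Scarna followed by a digit. There were 51 of them among 55536 annotated genes, 42 Snora and 9 Scarna genes under 49 symbols. The annotation types 44 as snoRNA and 7 as scaRNA. The RNA came from the chromatin fraction of bone marrow-derived macrophages (BMDM, cells grown from marrow) of the mouse strain C57BL/6J, given 100 ng/ml lipid A for 75 min. Lipid A is the part of bacterial lipopolysaccharide that engages Toll-like receptor 4. Ribosomal RNA was depleted before sequencing. The 2 libraries form 1 group, biological replicates 1 and 2, made from 250 and 500 ng of RNA. The labelled size range is 250 to 400. The donor label is the same for both, and nothing in the labels names separate mice, so each SD may be a spread between cultures. No unstimulated cells or other cell fraction were analysed here, so no value below is a response to lipid A.

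H/ACA RNAs fold into hairpins followed by an H box hinge and a 3' ACA box, and pair with a target RNA to place a pseudouridine there. Each is bound by the proteins dyskerin (Dkc1), Nhp2, Nop10 and Gar1. Most mammalian members are cut from introns of host genes, where the RNP assembles while the host is still being transcribed, and they then act on ribosomal RNA in the nucleolus. The scaRNAs act on spliceosomal snRNAs in Cajal bodies, and several join an H/ACA part to a C/D part, the kind that guides 2'-O-methylation, or are of the C/D kind alone. Members of the Scarna set therefore differ in class.

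The sequences below, from the GENCODE M21 transcripts on mm10, are those the results turn on: the longest and most counted members (150 bases of each of the 2 longest) and members that only the second of the deposited quantifications counted. Capitals mark an ACA followed by exactly 3 final bases, the ACA box position, and any TGATGA, the core of a C box. The positions are chr6:125186359-125186683 (minus strand) for Scarna10, chr3:108554338-108554751 (minus) for Scarna2, chr4:132352775-132352979 (minus) for Snora73a, chr4:132352322-132352526 (minus) for Snora73b, chr12:105031075-105031349 (minus) for Scarna13, chr1:87784556-87784820 (plus) for Scarna6, chr14:75847905-75848034 (plus) for Snora31 and chr9:15326264-15326333 (minus) for Scarna9.
Scarna10 (bases 1 to 150): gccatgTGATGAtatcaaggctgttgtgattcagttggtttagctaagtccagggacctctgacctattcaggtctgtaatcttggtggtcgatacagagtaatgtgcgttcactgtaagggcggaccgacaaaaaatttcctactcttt
Scarna2 (bases 265 to 414): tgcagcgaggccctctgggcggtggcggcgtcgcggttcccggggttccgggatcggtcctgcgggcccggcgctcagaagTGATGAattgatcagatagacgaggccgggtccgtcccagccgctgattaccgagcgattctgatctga
Snora73a: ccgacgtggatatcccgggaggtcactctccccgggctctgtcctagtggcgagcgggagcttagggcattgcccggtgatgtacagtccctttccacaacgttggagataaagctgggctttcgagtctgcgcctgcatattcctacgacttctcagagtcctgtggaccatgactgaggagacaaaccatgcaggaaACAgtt
Snora73b: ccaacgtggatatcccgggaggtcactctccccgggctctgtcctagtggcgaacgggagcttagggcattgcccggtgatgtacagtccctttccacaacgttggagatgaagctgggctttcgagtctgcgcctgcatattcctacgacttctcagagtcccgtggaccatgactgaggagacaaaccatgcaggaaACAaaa
Scarna13: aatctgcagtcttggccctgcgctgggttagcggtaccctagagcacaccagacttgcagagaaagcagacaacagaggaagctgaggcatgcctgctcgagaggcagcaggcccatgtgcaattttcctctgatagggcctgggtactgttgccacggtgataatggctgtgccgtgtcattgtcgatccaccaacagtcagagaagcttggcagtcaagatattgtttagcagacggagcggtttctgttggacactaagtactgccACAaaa
Scarna6: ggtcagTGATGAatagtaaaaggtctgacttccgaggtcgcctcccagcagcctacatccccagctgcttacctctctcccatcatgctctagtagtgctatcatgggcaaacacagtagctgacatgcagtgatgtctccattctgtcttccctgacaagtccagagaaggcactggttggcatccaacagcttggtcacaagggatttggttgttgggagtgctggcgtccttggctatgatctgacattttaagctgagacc
Snora31: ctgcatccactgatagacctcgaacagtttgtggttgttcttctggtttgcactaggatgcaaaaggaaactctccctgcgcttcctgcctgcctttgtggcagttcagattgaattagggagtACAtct
Scarna9: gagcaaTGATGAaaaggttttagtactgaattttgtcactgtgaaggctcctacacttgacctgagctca

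The 2 sets differed in these letters, searched on the transcript strand. Of 42 Snora sequences, 35 (83.3%) ended in ACA plus 3 bases, against 2 of 9 Scarna sequences (Scarna13 and Scarna8), 0 of 99 C/D box (Snord) sequences and 258 of 3476 other single-transcript genes of 100 to 149 bases (7.42%). The H box letters ANANNA lay in the middle part of 39 Snora sequences (92.9%), a loose pattern that 63.8% of those other genes and 45 of the 99 Snord sequences also held. TGATGA was in 0 Snora sequences, in 6 of 9 Scarna sequences, in 75 Snord sequences (75.8%) and in 3.08% of the other genes. TGAG, the letters of the CAB box that directs scaRNAs to Cajal bodies, was in 8 Scarna, 19 Snora and 82 Snord sequences and in 33.7% of the other genes. A TGATGA followed by G also holds a TGAG. Snora73a and Snora73b were 205 bases each and 96.6% identical (7 edits), which leaves uncertain how their reads were divided. Both Snora16a records (99.3% identical) overlap at 1 locus on chromosome 4, and both Snora43 records (91.4%) overlap on chromosome 2. Scarna3a and Scarna3b, on chromosomes 1 and 12, were 85.7% identical.

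The libraries held 21453617 estimated counts on annotated genes in replicate 1 and 29638814 in replicate 2. A ribosomal DNA locus on chromosome 17 (Gm26917, Gm42418 and CT010467.1) took 41.6% of counts in replicate 1 and 12.7% in replicate 2. Of 8 macrophage markers, 7 were at 1 TPM or more in both libraries, and Fcgr1 was at 0.93 and 2.09 TPM. In the first quantification the T cell markers were at 0, and no B cell, neutrophil or stromal marker reached 1 TPM (highest 0.56). In the second, the endothelial marker Pecam1 was at 3.36 and 8.67 TPM, Cd8a at 0.49 and 2.01 and Ms4a1 at 1.03 and 1.87. The neutrophil marker Mpo was at 0.32 and 1.29 TPM there, and the stromal markers Col1a1 at 0.72 and 1.65 and Col1a2 at 0.44 and 1.13. TPM is a count divided by effective length, the number of positions at which a fragment could start, and scaled to the same total in every table. The members' effective lengths in the first quantification ran from 0 to 174 bases in replicate 1, so counts are given beside TPM.

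The members held few counts and a larger part of TPM. They held 0.308% of counts (95% exact interval 0.305 to 0.310%) in replicate 1 and 0.194% (0.192 to 0.196%) in replicate 2, a mean of 0.251 ± 0.0803% (SD, n = 2). Their share of TPM was 5.04% and 3.01%. In the second quantification they held 0.202% and 0.130% of counts and 1.73% and 1.36% of TPM. Intervals here and below cover counting error only. In bulk RNA, fewer cells that hold an RNA and less of it per cell cannot be told apart. The 2 highest, Scarna10 and Scarna2, took 73.2% of all member counts in replicate 1 and 79.9% in replicate 2, and with Snora73a and Snora73b they took 90.3% and 91.0%.

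Of the 51 members, 19 (37.3%) reached 10 estimated counts in both libraries, 15 Snora and 4 Scarna genes. Of all 55536 annotated genes 13193 (23.8%) did, and of protein-coding genes 47.0%. A further 15 members were listed at 0 in both, as were 32893 of the 55536 genes. The median member had 6.00 counts in replicate 1 and 2.00 in replicate 2. The plot of counts by member shows 7 members with at least 1285 counts in both libraries and Snora68 next, at 262 and 108.

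**Figure D1:**
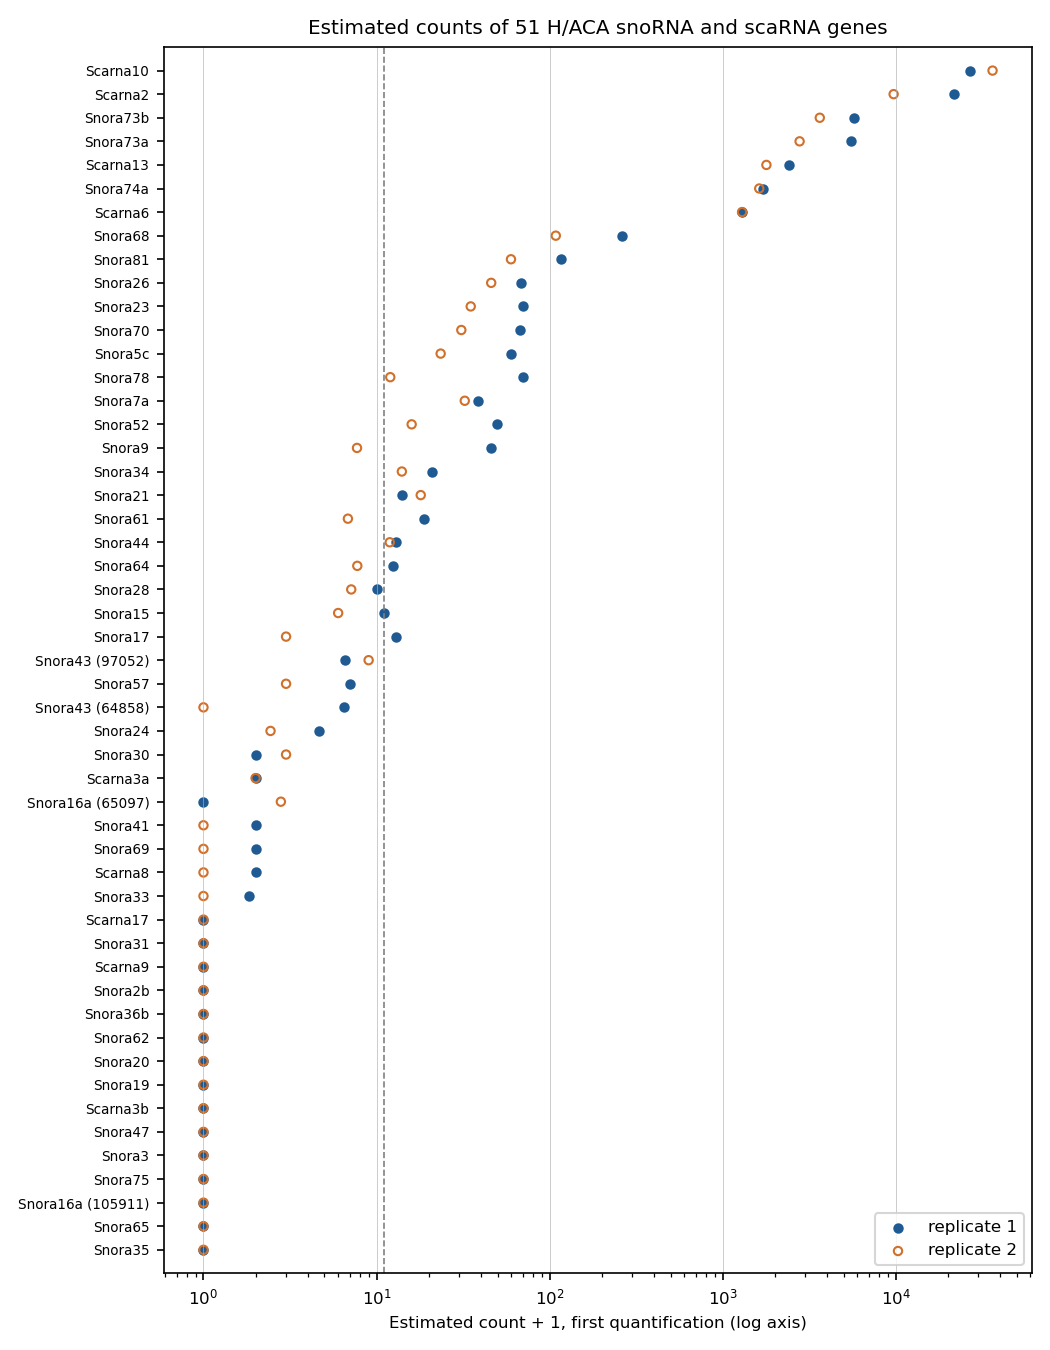
Estimated count + 1 (log axis) of each of the 51 members, ordered by mean count. Filled points are replicate 1, open points replicate 2, and the dashed line marks 10 counts. Numbers in brackets are the end of the gene identifier for symbols annotated more than once. The 7 highest members have at least 1285 counts in both libraries, and 15 members are at 0 in both.

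Every long member was counted, and shorter members were counted in part. The 9 members of 178 to 414 bases all passed 10 counts in both libraries and held 98.8% and 99.4% of member counts. No member was between 149 and 178 bases long, and the division at 150 bases was chosen after the values were seen. Of the 40 members of 100 to 149 bases, 10 passed, and 13 were listed at 0 in both. The 2 shorter members, Scarna9 and Scarna17, were listed at 0. Their annotated lengths of 70 and 79 bases are far below those of the other scaRNAs (131 bases or more), and whether these records hold the whole RNA was not tested. Among other annotated genes, C/D box genes included, of 100 to 149 bases, 34 of 3487 (0.975%) passed, and of 150 to 449 bases 196 of 7582 (2.59%). Across the 51 members, length and mean CPM (the count as a part of its library total) had a Spearman's rho of 0.47 in the first quantification and 0.40 in the second. Within the 42 members under 150 bases it was 0.06 and -0.05. These values describe genes that share the libraries and carry no test.

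**Figure D2:**
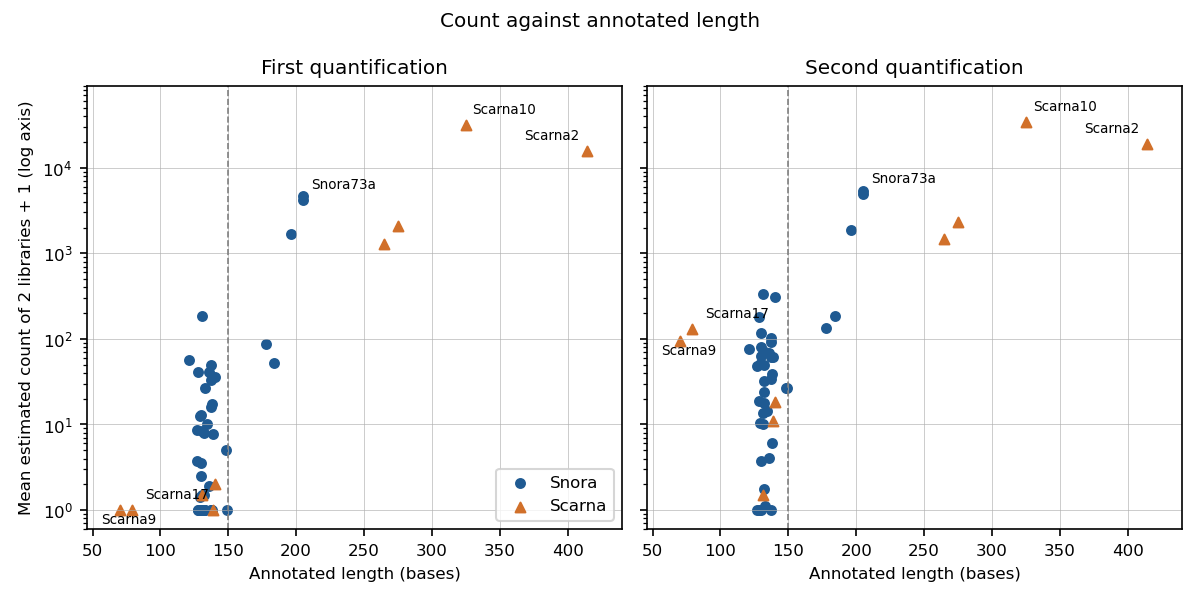
Mean estimated count + 1 (log axis) against annotated length for the 51 members, in the first (left) and the second quantification (right). Circles are Snora genes, triangles Scarna genes, and the dashed line is at 150 bases. All 9 members to the right of the line have counts in both panels, and Scarna9 and Scarna17 are at 0 in the left panel and not in the right.

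Among the scaRNAs, Scarna10 was the highest member by counts and by TPM. This RNA joins a C/D and an H/ACA part and guides modification of the U5 snRNA. It had 26742 counts in replicate 1 and 36219 in replicate 2, or 9214 and 10844 TPM (10029 ± 1153, n = 2). It lies on the minus strand inside Ncapd2, a condensin subunit gene, and overlaps an exon of 1 of its transcripts. Ncapd2 itself was at 1.85 and 0.86 TPM. Replicate 2, the deeper library, had the higher count of Scarna10, and the host was low in both.

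Scarna2, a C/D-type guide of the U2 snRNA, was the only one of the 7 highest members with no same-strand host gene in the annotation. It had 21575 counts in replicate 1 and 9715 in replicate 2, or 4167 and 1667 TPM. Replicate 1 was thus the higher, in counts as in TPM.

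Scarna13, with tandem H/ACA parts, lies in an intron of the lncRNA gene Snhg10. It had 2425 and 1787 counts in replicates 1 and 2, or 1336 and 844 TPM. Snhg10 had 0 and 1 counts, so the RNA inside the intron was counted and its spliced host almost not. Scarna6, which joins C/D and H/ACA parts, had 1285 and 1293 counts, or 793 and 683 TPM. It lies in an intron of the autophagy gene Atg16l1, which was at 15.9 and 24.3 TPM. Its counts in the 2 libraries were nearly equal, although replicate 2 was the deeper. The 5 other Scarna genes had 0 or 1 count in each library.

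Snora73a and Snora73b (also known as U17) were the highest Snora genes. This RNA is needed for early cuts of the ribosomal RNA precursor. Snora73b had 5749 counts in replicate 1 and 3636 in replicate 2, or 8772 and 4707 TPM. Snora73a had 5519 and 2780 counts, or 8422 and 3598 TPM. Both were higher in replicate 1. They lie in an intron of Rcc1, the exchange factor of the GTPase Ran, and within the span of the lncRNA gene Snhg3. Rcc1 was at 2.19 and 2.77 TPM and Snhg3 at 1.65 and 2.34 TPM. Snora74a (U19), a guide of the large ribosomal RNA, had 1708 and 1625 counts, or 3139 and 2535 TPM. It overlaps an exon of 1 transcript of the noncoding gene AC121821.1, which was at 6.91 and 13.1 TPM.

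Next came Snora68, which had 262 counts in replicate 1 and 108 in replicate 2. Its TPM was 5688 and 2083, the fourth highest mean of the members, since its effective length was 1.55 and 1.62 bases. Snora26, in the lncRNA gene Dancr, had 67.0 and 45.0 counts and was listed at 0 TPM in both, with an effective length of 0. It ranked 10 of 51 by counts.

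The members ranked 9, 11 and 12 by counts lie inside protein-coding genes. Snora81, in the helicase gene Eif4a2, had 116 and 58.8 counts. Snora23, in the importin gene Ipo7, had 69.0 and 34.0 counts. Snora70, in the ribosomal protein gene Rpl10, had 66.5 and 29.9 counts. In each of these, replicate 1 was the higher although it was the shallower library. Of the 19 that passed 10 counts in both, 16 had the higher count in replicate 1, and Scarna10, Scarna6 and Snora21 (13.0 and 17.0 counts) had it in replicate 2.

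The hosts were grouped by what they encode. Of the 51 members, 45 lay wholly inside a same-strand host gene. Where more than 1 gene held a member, the one with the most counts was taken as host. Of the 45 members, 22 overlapped no exon of that host, and 23 overlapped an exon of at least 1 of its transcripts. Exons of any further host were not checked. Where a member overlaps an exon, reads of the host transcript and of the member cannot be told apart by position. The same holds for a member in an intron and reads of the unspliced host. Ribosomal protein genes hosted 11 members, of which 5 passed 10 counts in both libraries. Genes annotated as noncoding hosted 11, of which 5 passed, and other protein-coding genes 23, of which 8 passed. The annotation types Cct6a, a chaperonin gene that hosts Snora15, as a processed transcript, so it is counted with the noncoding hosts. Of the 6 members with no such host, only Scarna2 passed. The Spearman's rho between host TPM and member mean CPM was -0.16 over 45 members in the first quantification and -0.07 in the second as a description over genes that share the libraries. Eif3a, at 81.1 and 126 TPM, hosts Snora19, which was listed at 0 in the first quantification and had 6.45 and 26.7 counts in the second. Rab3gap2, at 124 and 141 TPM, hosts Snora36b, listed at 0 in the first and with 27.0 and 36.0 counts in the second.

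The second quantification counted more members. It put 35 of 51 (68.6%) at 10 counts or more in both libraries, 16 more than the first, and no member passed only in the first. Of all annotated genes 40.2% passed in the second. The 16 members enter the ratios below through their second counts alone, as did 9175 of all genes. Counts of the second quantification were above those of the first in both libraries for 42 members and below in both for 0. Over the 35 members that passed in either quantification, the median log2 ratio of counts + 1, second over first, was 2.38, where all 22368 genes that passed had 1.49. A difference of 2-fold or more in both libraries, the second higher, was seen in 22 of those 35 members and in 58.4% of all genes, and the share with the second lower was 0 among members and 0.237% of all genes. The members' share of 22 in 35 lay near that of all genes.

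Among the members, the gap was large for short ones and small for long ones. In the 9 members of 150 bases or more the median log2 ratio was 0.20, and in the 24 of 100 to 149 bases it was 2.59. All 9 passed in both quantifications. Of the 24, only 10 passed in the first, so the filter itself favours a high ratio in the shorter set. Other genes that passed in either quantification had a median of 5.31 at 100 to 149 bases and 3.38 at 150 to 449 bases. Scarna10 had 29753 and 38072 counts in the second quantification, close to its counts in the first. Snora68 had 457 and 213. Snora7a, in the ribosomal protein gene Rpl32, had 37.7 and 31.3 counts in the first and 383 and 226 in the second. Snora23 had 176 and 190 in the second. Of the 15 members listed at 0 in both libraries by the first quantification, 7 had 10 or more counts in both by the second. The highest of these was Scarna17, a 79-base annotation with no same-strand host, at 124 and 137 counts. Snora31, in the gene Tpt1, had 73.0 and 160 counts there, and Scarna9, in the gene Cep295, had 105 and 83.0. These 7 were picked by their counts in the second table, so they cannot show how often a listed 0 goes with a low value there. The others of the 15 did not reach 10 counts in both libraries. They ranged from Snora19, at 6.45 and 26.7 counts, to members near 0 such as Snora3, at 0 and 1.56. Scarna17 and Scarna9 had an effective length of 0 in the first quantification in both libraries. Snora35, in Htr2c, and Snora65, in Rpl12, were listed at 0 in both tables of both libraries.

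TPM of the 7 most counted members was lower in the second quantification. Scarna10 was at 4657 and 5998 TPM in the second quantification, where the first gave 1.98 and 1.81 times as much. Snora68 was at 472 and 217 TPM, where the first gave 12.1 and 9.61 times as much. The effective length of Snora68 was 21.9 and 22.1 bases in the second table. Snora26 was at 107 and 69.6 TPM there. Scarna10 had the highest mean TPM in both tables, and Snora68 went from rank 4 to rank 7.

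**Figure D3:**
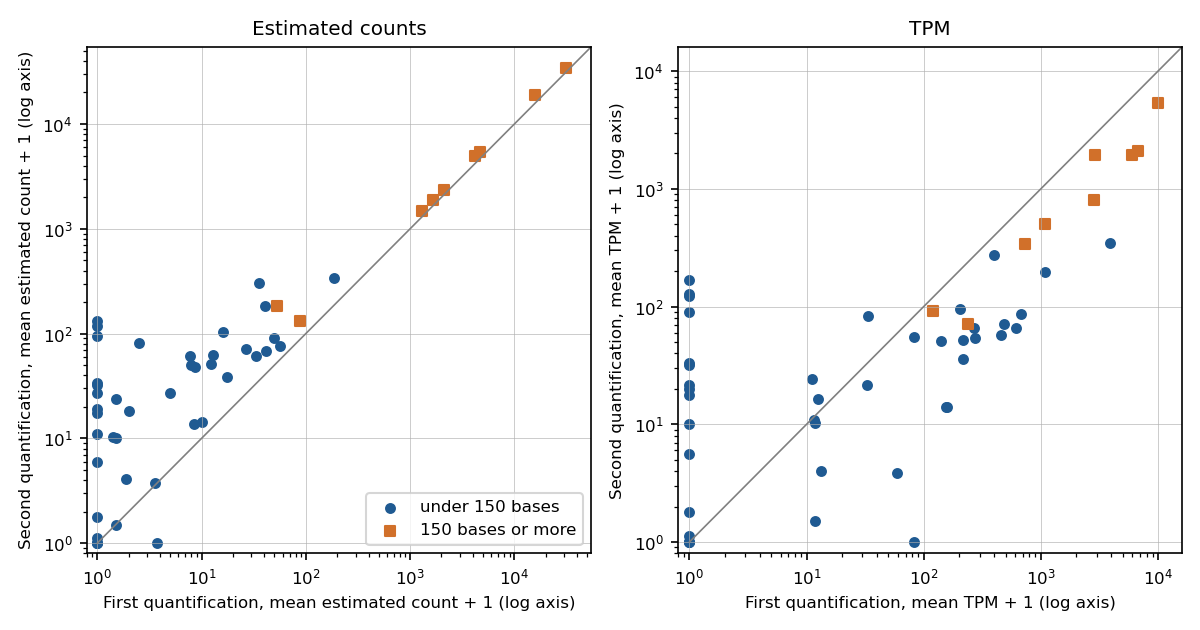
Mean estimated count + 1 (left) and mean TPM + 1 (right) of the 51 members in the first (x) and the second quantification (y), on log axes. Squares are the 9 members of 150 bases or more, circles the 42 shorter ones, and the line marks equal values. In counts the squares lie near or above the line, Snora23 the farthest, in TPM they lie below it, and circles on the left edge above the corner are listed at 0 by the first quantification only.

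Members were lower in replicate 2 once the libraries were scaled. This compares 2 libraries of 1 group, not conditions. Counts were scaled with TMM, a factor that takes most genes as equal, and each gene was put to an exact binomial test, two-sided. A call needed a Benjamini-Hochberg adjusted p under 0.05 over all genes tested and a fold of 2. Of the 51 members, 21 had a summed count of 20 or more and were tested, and 30 were not. Lower in replicate 2 were 18 of the 21, and 0 were higher, where 5.02% of 14442 genes were called lower and 6.92% higher. Among the members of 100 to 149 bases 10 of 12 tested were lower, and among other genes of that length 22 of 35 (62.9%) were lower and 0 higher, with a median log2 ratio of -1.49. Among the members of 150 bases or more 8 of 9 were lower, and among other genes of 150 to 449 bases 33 of 292 (11.3%) were lower and 37 (12.7%) higher. Whether the members differ from genes of their length was not tested. The test allows for counting error only, and 7408 of the genes tested had an adjusted p under 0.05 at any fold. The median log2 ratio of the 21, replicate 2 over replicate 1, was -2.05, against 0.00 for all genes tested. All 21 values were below 0.

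The size differed between members. Among the 8 members with 100 or more counts in both libraries, Snora68 had a log2 ratio of -2.35 (95% counting interval -2.69 to -2.03), Scarna2 -2.23 (-2.26 to -2.19), Snora73a -2.06 (-2.13 to -2.00) and Snora73b -1.74 (-1.80 to -1.68). Scarna13 was at -1.52 (-1.61 to -1.43), Snora74a at -1.15 (-1.25 to -1.05) and Scarna6 at -1.07 (-1.18 to -0.95). Scarna10 was at -0.64 (-0.66 to -0.62), under 2-fold and not called. Snora73a and Snora73b share a host and nearly all of their sequence, and their intervals did not overlap, although how their reads were divided is uncertain. The 2 lowest members were Snora9, in the lncRNA gene Snhg15, at -3.68 (-5.15 to -2.60) from 44.7 and 6.71 counts, and Snora78, in the lncRNA gene Snhg9, at -3.67 (-4.79 to -2.80) from 69.0 and 11.0 counts. Snora21, in Rpl23, was at -0.70 (-1.82 to 0.47) and was not called, nor was Snora44 at -1.20 (-2.52 to 0.11). The members' direction was the same under each scaling factor tried, and the size was not. With library size only, the median of all genes moved to 0.61 and that of the members to -1.44, and 13 members were called lower and 0 higher, where 0.921% of all genes were lower and 26.6% higher. Scarna10 was then at -0.03, and Scarna13, Snora74a, Scarna6, Snora7a and Snora34 were no longer called. With the ribosomal DNA locus left out before TMM, the members' median was -2.04, and 18 were called lower and 0 higher. Of all genes 5.02% were then lower and 6.92% higher. With library size without that locus (chosen after seeing the data) the median was -2.02, again with 18 lower and 0 higher. Of all genes 4.52% were then lower and 7.34% higher. The members' median lay 2.04 below that of all genes under every factor, since a factor moves all genes by the same amount. The libraries also differed in other ways. Protein-coding genes held 47.0% of counts in replicate 1 and 66.2% in replicate 2. On the TMM scale the lipid A response gene Cxcl10 (790 and 7999 counts) had a log2 ratio of 2.26 and was called higher in replicate 2, and of 8 macrophage markers Csf1r (-1.16) and Itgam (-1.24) were called lower. Beyond the scaling, the part of these, of the ribosomal DNA locus and of the RNA input in the members' difference was not tested.

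**Figure D4:**
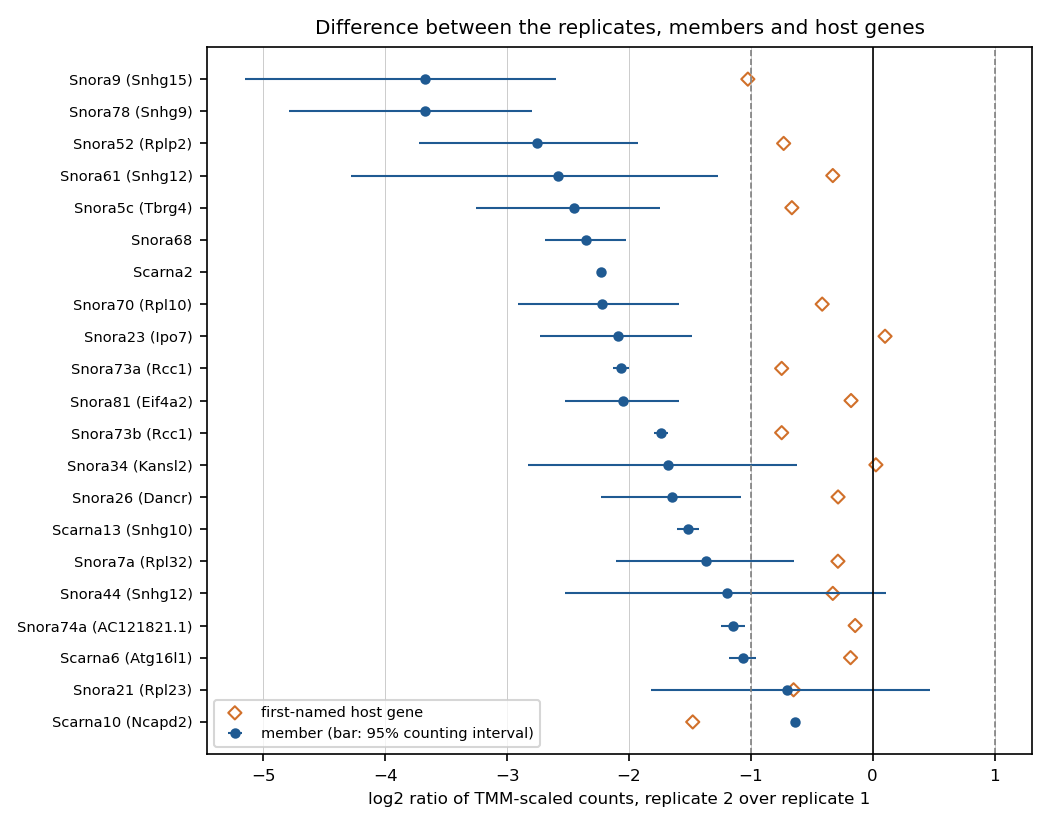
Log2 ratio of TMM-scaled counts, replicate 2 over replicate 1, of the 21 tested members (filled points, bars are 95% counting intervals) and of the first-named host gene (open diamonds, host in brackets). Dashed lines mark 2-fold, Scarna2 has no host, the hosts Snhg9 and Snhg10 were not tested, and no host is drawn for Snora68. Of the members drawn with a host, Scarna10 lies to the right of it and the others to the left.

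Most hosts differed less between the libraries than the member inside them. For 18 tested members the host was also tested, which gave 16 distinct hosts. The hosts had a median log2 ratio of -0.37, 2 were called lower (Ncapd2 and Snhg15) and 0 higher. The member was below its host in 17 of 18 cases, with differences of -2.65 to 0.84 and a median difference of -1.53 (log2). Snora23 was at -2.09 and its host Ipo7 at 0.10. Snora81 was at -2.05 and Eif4a2 at -0.18. The exception was Scarna10, at -0.64 with Ncapd2 at -1.48. Host values count reads over the host's exons. Where a member lies in an intron, as Snora23 does, they do not measure that intron. Where it overlaps a host exon, as Snora81 and Scarna10 do, host and member can share reads, so the 2 ratios are not of separate quantities.

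Genes for the proteins that make and use H/ACA RNPs were measured in the same libraries. Of 32 genes in a list of RNP proteins, assembly factors, Cajal body and nucleolar partners, processing enzymes, telomerase and pseudouridine synthases that use no guide, 20 (62.5%) were at 1 TPM or more in both libraries, as were 34.7% of 22028 protein-coding genes. The core gene Dkc1 was at 1.25 and 5.14 TPM, Nhp2 at 3.80 and 3.77, Gar1 at 4.25 and 6.18 and Nop10 at 0.62 and 0.61. The assembly factor gene Shq1 was at 1.55 and 2.40 TPM and Naf1 at 0.56 and 0.82. The exosome gene Exosc10, which trims snoRNA ends, was the highest, at 12.2 and 15.6 TPM. The Cajal body gene Coil was at 0.85 and 1.00 TPM, and Wrap53, whose product binds the CAB box, at 0.87 and 1.81.

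Between the libraries, of 30 of these genes tested, 2 were called higher in replicate 2 and 2 lower, against the 6.92% and 5.02% of all genes, and their median log2 ratio was -0.30. Higher were Dkc1 (45.0 and 247 counts, log2 ratio 1.37) and the tRNA pseudouridine synthase gene Pus3 (7.11 and 64.8 counts, 2.05). Lower were Nolc1, a nucleolar and Cajal body partner of these RNPs (162 and 154 counts, -1.15), and Terc (19.0 and 11.0 counts, -1.84). Terc, the telomerase RNA, ends in an H/ACA domain. Its ratio lay among those of the members.

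C/D box snoRNAs, the other large class, were shorter. Of 99 Snord genes, with a median length of 84 bases against 133 for the members, 94 had an effective length of 0 and were listed at 0 in both libraries. The number that passed 10 counts in both was 4 of 99 (4.04%), against 19 of 51 members (37.3%). In the second quantification it was 48 of 99 (48.5%) and 35 of 51 (68.6%). Of the 4 Snord genes tested between the libraries, 3 were lower in replicate 2 and 0 higher, with a median log2 ratio of -1.55. Among genes of 100 to 149 bases, 3 of 11 Snord genes and 10 of 40 members passed 10 counts in both libraries of the first quantification. Whether the classes differ was not tested.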

How the data were processed

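Total RNA of the chromatin fraction was measured in 2 libraries of 1 group, and no comparison between conditions was possible. The authors deposited estimated (expected) counts and TPM per gene, made from an alignment to the mm10 transcriptome (GENCODE M21), per the deposited text. The second quantification is a deposited table of estimated counts and TPM per transcript, which the authors made from the reads and a transcript index, per that text. Its values were summed by gene, and each of the 51 members has 1 transcript. Aligner, quantifier, versions and use of strand: not given in the sources used here. A member and an antisense gene may share reads. Rows that match no annotated gene (0.409% and 0.277% of counts) were left out. At these depths 3 counts were 0.140 and 0.101 CPM. Values are per library, with mean and SD (n = 2).

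Counts were rounded, scaled with TMM (edgeR 4.0.16, R 4.3.3; factors 0.810 and 1.24) over genes whose counts sum to at least 20, and compared with exact binomial tests in scipy 1.17.1, with 0.5 added to each count for the ratio. DESeq2 1.42.0 size factors, library size, other filters and the second quantification were alternatives. On Poisson counts simulated for 14375 genes, the test recovered all 200 genes given a 4-fold change and made 1 false call. The changed genes were drawn from those with an expected count of at least 100 in replicate 1. Poisson counts hold counting error only, so this run cannot show how often the test calls genes in libraries that differ by more than that. Named members were the 12 highest by mean CPM, Scarna genes with 10 counts in both libraries, the 5 highest by TPM and the extremes of each ratio among members with 100 counts in both (14 in all). For the ratio of the quantifications, 100 counts by either quantification sufficed. Members named outside the rule were chosen after their values were seen. The members and lists were chosen with earlier results of these data known. The host gene of 1 member is not reported here.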

Additional observations from a re-analysis of the deposited data

How the results depend on the processing

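The members' median log2 ratio stayed below 0 under all 7 alternatives, from -2.06 to -1.44, and 0 members were called higher under any of them. Single ratios were below 0 for all members tested except 1 of 36 with no filter and 2 of 39 in the second quantification. The number called lower was 18, and 10 with a summed count of 100 or more, where 11 members were tested. The number of members with 10 counts in both libraries was 19, 30 with a minimum of 1 count and 35 in the second quantification. The share of counts was 0.251%, 0.166% in the second quantification, 0.374% with the ribosomal DNA locus out of the total and 0.0607% without Scarna10 and Scarna2 (chosen after seeing the data). The share of TPM was 4.03%, and 1.55% in the second quantification. The median log2(TPM + 1) was 5.82, and 9.12 over members with 10 counts in both. The median log2 ratio of the quantifications was 2.38, 1.59 with no filter and 1.58 on the CPM scale (chosen after seeing the data). It was 0.23 over the 11 members with 100 counts in both libraries by either quantification. Of the 22 members that differed 2-fold between quantifications, 0 had 100 counts in both libraries by the first. With 1 library left out, 19 to 24 members had 10 counts, the share of counts was 0.194 to 0.308% and the median log2 ratio of the quantifications 2.06 to 2.65. No paired analysis was possible because the series has 1 group. Low counts limit the members under 150 bases: 30 of 51 were too low for the replicate comparison.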
